A study of Triticum aestivum with 9 samples.

Results

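The transcript levels of 3 transcription factors that control storage protein genes in the wheat grain, SPA, PBF and NAC019, were examined in filling grains held for 1 h at 20, 30 or 40 °C. Each factor is encoded by 3 copies, on the A, B and D subgenomes, and the 9 genes were chosen by identifier: the bZIP factor SPA on chromosomes 1A, 1B and 1D, the DOF factor PBF on 5A, 5B and 5D, and the NAC factor NAC019 on 3A, 3B and 3D. They are 9 of 107891 annotated genes, and each was represented by 1 transcript among 133744. All plants were of the wheat cultivar Chinese Spring, were moved from a greenhouse to 20 °C chambers 12 days after flowering, and were kept there for 3 days under 14 h of light. Plants were then put into incubators already at 30 °C or 40 °C or stayed at 20 °C as the control, and grains of the main stem were frozen after 1 h. Grains of 3 plants per temperature were sequenced, which gave 9 samples with no other treatment and no genetic change. One text field of the sample labels names an animal cell type as the source of the RNA, whereas the tissue, cultivar and organism fields all give wheat grains. No table that pairs the gene identifiers with annotated marker genes was used, so the tissue could be checked only through these grain regulators, each of which was detected in all 9 samples.

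Storage proteins of the wheat grain, the glutenins and gliadins, are made in the starchy endosperm during grain filling, and their amount is set largely by transcription. SPA, storage protein activator, is a bZIP protein related to the maize endosperm regulator Opaque2, and it binds a GCN4-like motif in storage protein promoters. PBF, the prolamin-box binding factor, is a DOF zinc finger protein that binds the neighbouring prolamin box of the same promoters. NAC019 is an endosperm NAC protein of wheat that binds promoters of glutenin genes and also acts on starch synthesis genes.

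The total expected count, the number of fragments that the authors' quantification assigned to transcripts, ranged from 15778561 to 19497182 per sample, and a regulator transcript received between 23.0 and 685 fragments in a sample. The grain of 40 °C replicate 3 stood apart from the other plants at 40 °C. It had 38710 transcripts with an FPKM (fragments per kilobase of transcript, scaled to the sequencing depth) above 1, against 41286 and 41327, and 38.6% of its counts lay on its 100 most abundant transcripts, against 30.3% and 30.2%. This share was 37.0% to 41.6% at 20 °C and 31.0% to 35.3% at 30 °C. The comparisons at 40 °C are therefore also given without 40 °C replicate 3. Expected counts of the NAC019 copies were whole numbers in 9 of 9 samples, to within 0.005. Those of the SPA copies were whole in 2 or 3 samples and those of the PBF copies in 0, so the SPA and PBF values include fragments divided between similar transcripts, and values of their copies are not independent of each other.

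NAC019 showed the largest differences among the 3 factors. Summed over its 3 copies, its FPKM was 74.1, 36.7 and 41.2 in the plants at 20 °C and 21.2, 17.5 and 13.4 in the plants at 30 °C, so that every plant at 30 °C lay below every control plant. The controls averaged 50.7 ± 20.4 (SD, n = 3) and the plants at 30 °C 17.4 ± 3.92 (SD, n = 3), a ratio of 0.343 (exact two-sided permutation test, p = 0.1, the smallest that 3 plants against 3 allow, and 0.3 after Benjamini-Hochberg adjustment over 9 tests of factor totals). Control replicate 1 was the highest of the 9 samples.

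The copy on 3B, TraesCS3B02G092800.1, fell at 30 °C. Its FPKM was 24.4, 13.0 and 14.6 at 20 °C against 6.27, 3.8 and 3.36 at 30 °C. The log2 fold change was -1.98 (SE 0.35, edgeR quasi-likelihood FDR 0.0215, that is, a Benjamini-Hochberg adjusted p over all transcripts tested). A transcript was called different when this FDR was under 0.05 and the fold change above 2 in either direction. By this rule 1 of the 9 regulator transcripts was called between 30 and 20 °C, in the lower direction, while of 45956 transcripts tested 3.88% were called in either direction, 599 (1.30%) lower and 2.58% higher. The copy on 3A, TraesCS3A02G077900.1, had an FPKM of 20.5, 9.98 and 11.6 at 20 °C and of 5.88, 1.91 and 4.01 at 30 °C. Its log2 fold change of -1.86 had a 95% interval from -2.91 to -0.82 and an edgeR FDR of 0.0529, just outside the threshold. The copy on 3D, TraesCS3D02G078500.1, had an FPKM of 29.3, 13.7 and 15.0 at 20 °C and of 9.08, 11.8 and 6.02 at 30 °C, with a log2 fold change of -1.14 (95% interval -2.01 to -0.27, edgeR FDR 0.114). In all 3 copies the groups did not overlap, and control replicate 1 was the highest plant. Of all transcripts tested, 14.3% lay wholly lower at 30 °C and 30.4% did not overlap in either direction. The call of the 3B copy depended on single plants: its FDR was 0.0506 without control replicate 1, 0.0533 without control replicate 3, 0.0925 without 30 °C replicate 2 and 0.0859 without 30 °C replicate 3. In a single fit of all 9 samples its FDR was 0.079 and it was not called, whereas 3A was. The 3A copy was also called without 30 °C replicate 1 (FDR 0.0304), where 2.82% of all transcripts were called lower. DESeq2 called all 3 copies and 2.25% of all transcripts lower.

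**Figure D1:**
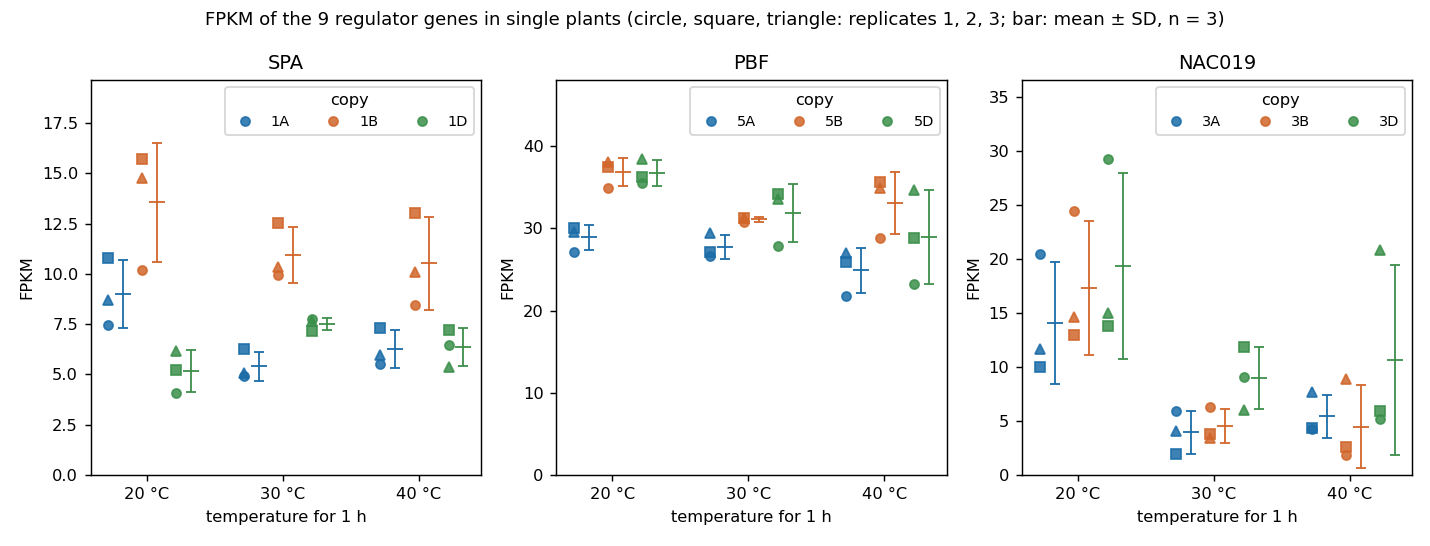
FPKM of each copy of SPA, PBF and NAC019 (vertical axis, linear, from 0) at 20, 30 and 40 °C; points are single plants, with a symbol per replicate, and bars are the mean ± SD (n = 3). The NAC019 points at 30 °C all lie below those at 20 °C, 40 °C replicate 3 (triangle) stands at 20.8 for the copy on 3D, and PBF copies stay between 21.8 and 38.5.

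At 40 °C the NAC019 total was 11.2 and 12.9 in replicates 1 and 2 but 37.3 in replicate 3, which lay within the range of the control plants. The mean was 20.5 ± 14.6 (SD, n = 3), a ratio of 0.404 to the control (exact two-sided permutation test, p = 0.2, adjusted p = 0.36). No regulator transcript was called between 40 and 20 °C by edgeR's quasi-likelihood test. Over all 46250 transcripts tested, 12.1% were called, 2098 (4.54%) lower and 3485 (7.54%) higher, and 18.6% passed the FDR threshold alone, as 0 regulators did. Of the 9 regulators, 3 had an unadjusted edgeR p under 0.05: NAC019 3A and 3B, which were lower, and SPA 1D, which was higher. The share of all transcripts with such a p was not counted, so this number cannot be set against a background. DESeq2 called 2 regulators, the NAC019 copies on 3A and 3B, and 12.9% of all transcripts, 5.26% lower. The FPKM of the 3A copy was 4.21, 4.36 and 7.71 at 40 °C, below every control plant, with a log2 fold change of -1.20 (95% interval -2.14 to -0.26, edgeR FDR 0.0792). The 3B copy stood at 1.84, 2.60 and 8.85, also below every control plant, with a log2 fold change of -1.76 (95% interval -3.22 to -0.30, edgeR FDR 0.0934). The 3D copy stood at 5.17, 5.90 and 20.8 and overlapped the controls, with a log2 fold change of -0.65 (95% interval -2.12 to 0.81, edgeR FDR 0.497). In each of the 3 copies, 40 °C replicate 3 was the highest plant of its temperature.

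Without 40 °C replicate 3, all 3 NAC019 copies were called lower at 40 °C, while 2487 of all 46812 transcripts tested (5.31%) were. Their log2 fold changes were then -1.67 for 3A (edgeR FDR 0.0273), -2.91 for 3B (FDR 0.00511) and -1.76 for 3D (FDR 0.0302), and the ratio of the totals moved from -1.31 to -2.07 on the log2 scale. No regulator was called when any of the other 5 samples was left out, where 9.5% to 10% of all transcripts were, 2.81% to 3.65% lower. Scaling by library size alone in place of TMM factors gave other calls at 40 °C. Under it the median log2 fold change of all transcripts was -0.14, and higher transcripts made up 48.9% of all calls against 62.4% with TMM factors. The 3A and 3B copies were called lower (log2 fold change -1.37 and -1.97), while 6.68% of all transcripts were. All 3 NAC019 copies had a negative log2 fold change at both temperatures under every setting and every omission of a plant that was run.

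Between sets of samples, though not within each temperature, NAC019 was higher where the 100 most abundant transcripts took a larger share of counts. The 4 samples in which this share was 37.0% or more, the controls and 40 °C replicate 3, had NAC019 totals of 36.7 to 74.1. In the other 5 samples the share was 30.2% to 35.3% and the totals were 11.2 to 21.2. Within a temperature the orders of both quantities matched at 30 °C only. At 20 °C the share was higher in replicate 2 than in replicate 3 and the NAC019 total lower, and at 40 °C replicate 1 had a share of 30.3% and a total of 11.2 where replicate 2 had 30.2% and 12.9. The part of this share in the difference between temperatures was not tested. The PBF totals fell into the same sets of samples without overlap, 96.7 to 106 in the 4 samples and 73.9 to 94.3 in the other 5. The SPA totals overlapped, at 21.4 to 31.8 in the 4 samples and 20.4 to 27.6 in the other 5. In whole-grain RNA, fewer endosperm cells and less RNA per cell cannot be told apart.

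**Figure D2:**
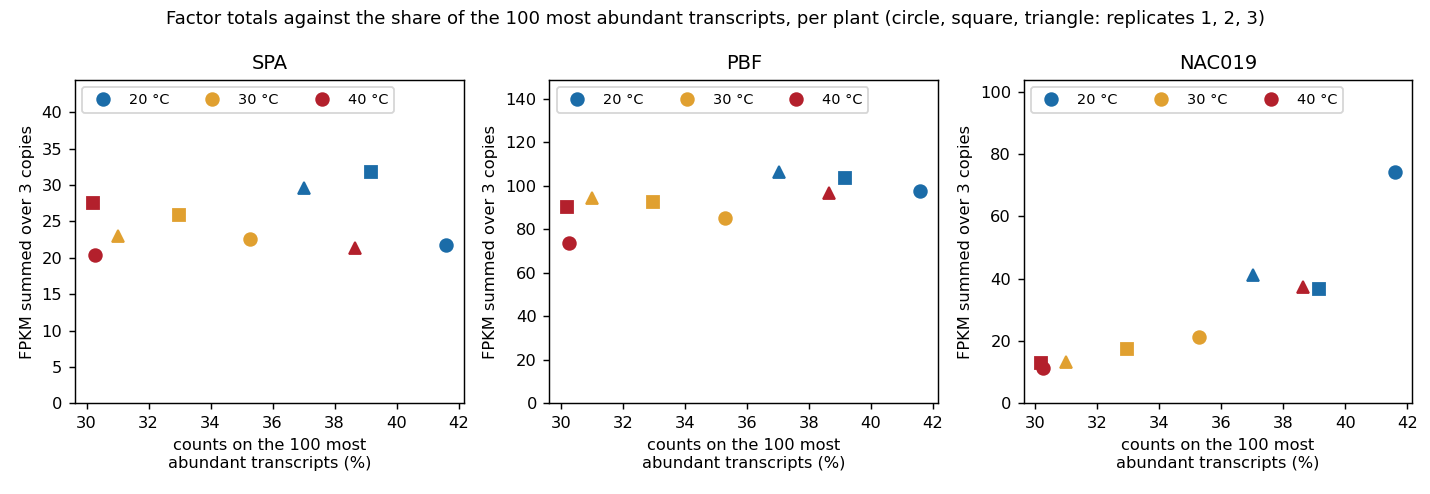
FPKM summed over the 3 copies of each factor (vertical axis, linear, from 0) against the percentage of expected counts on the 100 most abundant transcripts of the same sample (horizontal axis); each point is 1 plant, coloured by temperature, with a symbol per replicate. For NAC019, 40 °C replicate 3 lies at 38.6% and 37.3 beside control replicate 2 at 39.2% and 36.7, away from the other plants at 40 °C.

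Between 40 and 30 °C, the direct test of the step from mild to severe heat, none of the 9 regulators was called by edgeR or by DESeq2, and 0 had an unadjusted p under 0.05. Over all 44638 transcripts, edgeR called 1587 (3.56%) in either direction, 3.02% higher and 0.533% lower at 40 °C, and 5.14% passed the FDR threshold alone. DESeq2 called 4.62% of all transcripts. The share with an unadjusted p under 0.05 was not counted. The FPKM of no regulator was free of overlap between these groups, as that of 28.1% of all transcripts was (9.92% higher and 18.1% lower). The NAC019 copies had log2 fold changes of 0.63 (95% interval -0.47 to 1.74) for 3A, 0.20 (-1.31 to 1.71) for 3B and 0.46 (-0.95 to 1.87) for 3D. Each interval includes 0 and reaches above a 2-fold rise. At this spread a 2-fold rise between the heat treatments could thus not be told from no difference. Without 40 °C replicate 3 the log2 fold changes of 3B and 3D turned to -0.95 and -0.63, with edgeR FDR 0.291 and 0.371.

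SPA had a lower level than PBF in every plant, and its copies differed from the control in different directions. Its total FPKM was 21.7, 31.8 and 29.6 at 20 °C, 22.6, 25.9 and 23.1 at 30 °C, and 20.4, 27.6 and 21.4 at 40 °C. The groups overlapped at both heat treatments, with ratios of 0.861 and 0.835 to the control (exact two-sided permutation test, p = 0.4 and 0.2, adjusted p = 0.6 and 0.36). The total thus differed by less than the spread between plants, while the copies behind it did not share a direction.

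The SPA copy on 1A, TraesCS1A02G329900.1, had an FPKM of 7.48, 10.8 and 8.70 at 20 °C, 4.93, 6.24 and 5.06 at 30 °C, and 5.50, 7.32 and 5.94 at 40 °C. All heated plants lay below all control plants. At 30 °C its log2 fold change was -0.76 (95% interval -1.18 to -0.35, edgeR FDR 0.0499), which passed the FDR threshold, as 6.35% of all transcripts did, but not the 2-fold one, and at 40 °C it was -0.38 (-0.82 to 0.06, FDR 0.201). The copy on 1D, TraesCS1D02G332200.1, had an FPKM of 4.09, 5.24 and 6.15 at 20 °C, 7.74, 7.14 and 7.64 at 30 °C, and 6.46, 7.23 and 5.38 at 40 °C. At 30 °C all plants lay above all control plants, with a log2 fold change of 0.52 (95% interval 0.15 to 0.90, edgeR FDR 0.101), and at 40 °C the groups overlapped (log2 fold change 0.45, 0.05 to 0.84, FDR 0.11). The copy on 1B, TraesCS1B02G343500.1, had an FPKM of 10.2, 15.7 and 14.8 at 20 °C, 9.92, 12.5 and 10.4 at 30 °C, and 8.43, 13.0 and 10.1 at 40 °C. Its groups overlapped, with log2 fold changes of -0.33 (95% interval -0.73 to 0.07) at 30 °C and -0.22 (-0.71 to 0.28) at 40 °C. Without 40 °C replicate 3 the values at 40 °C were -0.44 for 1A, -0.28 for 1B and 0.47 for 1D, none of them called.

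Whether SPA copies differed in their response was tested on the log2 ratio of a pair of copies within each plant, a quantity that does not depend on the scaling between libraries. The log2 ratio of 1A to 1D was 0.79 ± 0.27 (SD, n = 3) at 20 °C, -0.47 ± 0.24 at 30 °C and -0.02 ± 0.19 at 40 °C. Every heated plant lay below every control plant, a shift of -1.27 at 30 °C and of -0.82 at 40 °C. The log2 ratio of 1B to 1D shifted from 1.37 ± 0.17 to 0.53 ± 0.24 at 30 °C and 0.71 ± 0.28 at 40 °C, again without overlap. Each of these 4 shifts had the smallest p that 3 plants against 3 allow (exact two-sided permutation test, p = 0.1), and p = 0.208 after adjustment over 27 copy differences, so none passed a threshold of 0.05 and none could have. The log2 ratio of 1A to 1B also shifted without overlap, by -0.43 from 20 to 30 °C and by 0.27 from 30 to 40 °C. Between 20 and 40 °C it overlapped. In all, 6 of the 9 SPA copy differences and 13 of the 27 reached this smallest p. The same share among copies of other genes was not counted, and the 27 tests share copies and plants, so they are not independent. With 1 in place of 0.1 added to each FPKM, PBF 5A to 5B at 40 °C and NAC019 3A to 3D at 30 °C had p = 0.2 (exact two-sided permutation test). The shift in 1A to 1D stayed between -1.42 and -1.15 at 30 °C and between -0.97 and -0.70 at 40 °C when any plant was left out. As a share of SPA FPKM, the 1D copy made up 18.7% ± 2.14 (SD, n = 3) in controls, 31.7% ± 3.59 after 30 °C and 27.7% ± 3.51 after 40 °C. The share of 1A was 32.6% ± 2.79, 22.6% ± 1.27 and 27.1% ± 0.598, and that of 1B lay between 45.2% and 48.7% at all temperatures. In the control the order of levels was 1B, 1A, 1D in each plant. At 30 °C it was 1B, 1D, 1A in each plant, and at 40 °C 1A and 1D did not keep an order, since 1A was higher in replicates 2 and 3 and lower in replicate 1.

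**Figure D3:**
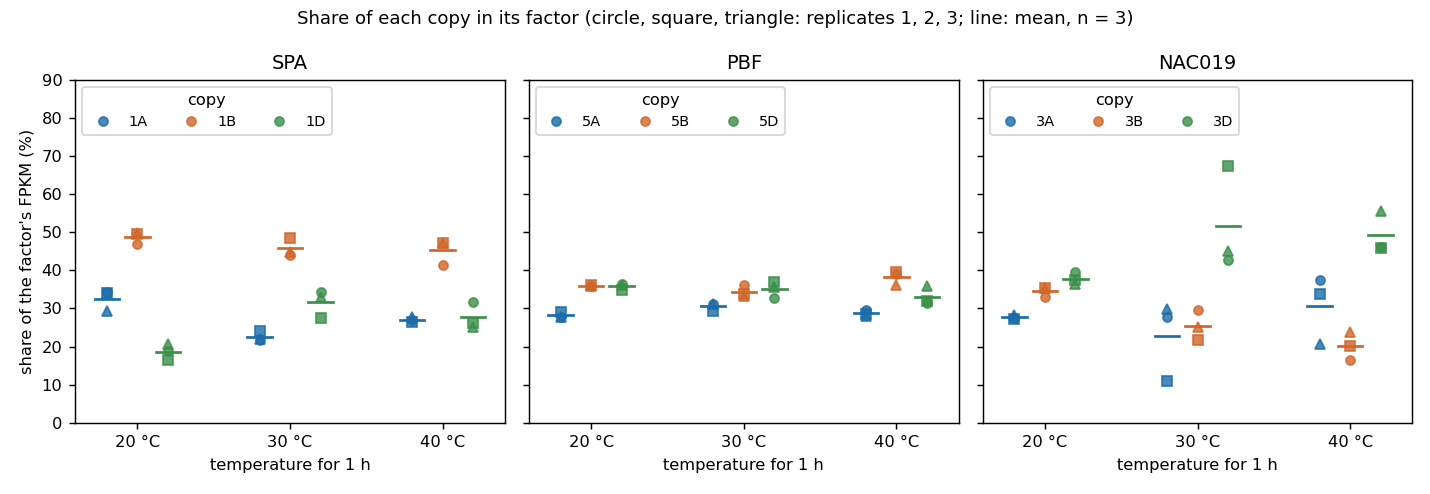
Share of each copy in the summed FPKM of its factor, in percent (vertical axis), at 20, 30 and 40 °C; points are single plants with a symbol per replicate and lines are means (n = 3). The SPA copies on 1A and 1D change order between 20 and 30 °C, the PBF shares stay between 27.8% and 39.5%, and the NAC019 shares are tight at 20 °C and spread in heated plants.

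PBF was the most abundant factor in every plant, and none of its copies was called at either heat treatment. Its total FPKM was 97.7, 104 and 106 at 20 °C, 85.3, 92.6 and 94.3 at 30 °C, and 73.9, 90.4 and 96.7 at 40 °C. Heated plants lay below control plants at both temperatures, by ratios of 0.885 and 0.849 (exact two-sided permutation test, p = 0.1 each, adjusted p = 0.3). On CPM (counts scaled to library size) with TMM factors the log2 ratio at 40 °C was -0.07 in place of -0.24, and the exact permutation p was 0.7, so the difference at 40 °C depended on the scaling between libraries. Without 40 °C replicate 3 the log2 ratio of FPKM totals at 40 °C was -0.32, and without 40 °C replicate 1 it was -0.13.

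The PBF copies received 316 to 685 fragments per sample, against 23.0 to 346 for those of NAC019. The copy on 5A, TraesCS5A02G155900.1, had an FPKM of 27.2, 30.1 and 29.6 at 20 °C, 26.7, 27.1 and 29.4 at 30 °C, and 21.8, 25.9 and 27.1 at 40 °C. Its log2 fold changes were -0.09 (95% interval -0.31 to 0.14) at 30 °C and -0.06 (-0.43 to 0.31) at 40 °C. The copy on 5B, TraesCS5B02G154100.1, had an FPKM of 34.9, 37.5 and 38.1 at 20 °C, 30.8, 31.3 and 31.2 at 30 °C, and 28.8, 35.7 and 34.9 at 40 °C. At 30 °C its plants lay below all controls (log2 fold change -0.27, 95% interval -0.48 to -0.05, edgeR FDR 0.129), and at 40 °C the value was 0.00 (-0.34 to 0.35), with a sign that turned under 9 of the settings and omissions run. The copy on 5D, TraesCS5D02G161000.1, had an FPKM of 35.5, 36.2 and 38.5 at 20 °C, 27.9, 34.2 and 33.6 at 30 °C, and 23.3, 28.8 and 34.7 at 40 °C, with log2 fold changes of -0.23 (95% interval -0.47 to 0.01) and -0.17 (-0.66 to 0.31). All 6 intervals lie inside a 2-fold difference in either direction. Without 40 °C replicate 3 the log2 fold changes at 40 °C were -0.23 for 5A, -0.14 for 5B and -0.44 for 5D (edgeR FDR 0.243, 0.483 and 0.0638), and without 40 °C replicate 1 that of 5D was -0.03. The log2 ratio of 5A to 5B was -0.35 ± 0.03 (SD, n = 3) at 20 °C, -0.17 ± 0.07 at 30 °C and -0.41 ± 0.05 at 40 °C, without overlap between any pair of temperatures (exact two-sided permutation test, p = 0.1 each, adjusted p = 0.208). The shift from 20 to 40 °C was small, -0.06, and -0.03 without 40 °C replicate 2. With 1 in place of 0.1 added to each FPKM, its p was 0.2 (exact two-sided permutation test). On the FPKM scale 5A was the lowest PBF copy in each of the 9 samples. The copies on 5B and 5D stood at 36.8 ± 1.68 and 36.7 ± 1.55 (SD, n = 3) in the control and did not differ beyond their spread.

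The NAC019 copies kept nearly fixed proportions at 20 °C and spread out in heated plants. At 20 °C the copies made up 27.7% ± 0.524 (3A), 34.6% ± 1.4 (3B) and 37.8% ± 1.58 (3D) of the NAC019 FPKM (SD, n = 3), in the same order in each plant. At 30 °C the share of 3D was 51.7% ± 13.6, with 67.4% in replicate 2, and that of 3A was 22.8% ± 10.4, with 10.9% in the same plant. At 40 °C the shares were 30.7% ± 8.88 for 3A, 20.1% ± 3.66 for 3B and 49.2% ± 5.58 for 3D, and 3D was the highest copy in each of the 9 samples. The log2 ratio of 3B to 3D was -0.13 ± 0.12 (SD, n = 3) at 20 °C, -0.99 ± 0.56 at 30 °C and -1.27 ± 0.15 at 40 °C. This was a shift of -0.86 and of -1.14 without overlap (exact two-sided permutation test, p = 0.1, adjusted p = 0.208), and at 40 °C it held between -1.21 and -1.06 when any plant was left out. At 30 °C it was -0.55 without replicate 2. In the balance of 3A with the other copies, 40 °C replicate 3 differed from the other plants at 40 °C, as its 3A share was 20.7% against 37.5% and 33.9%. With counts as low as 23.0 fragments, the share of a copy in a heated plant also carries counting error.

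**Figure D4:**
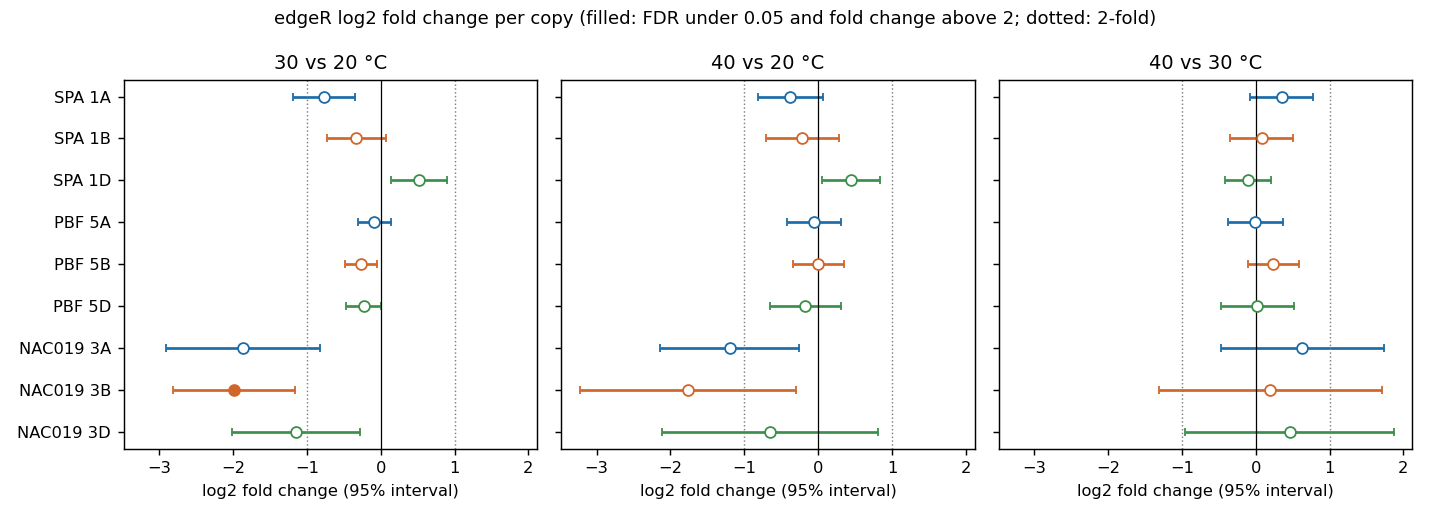
edgeR log2 fold change of each copy (horizontal axis) with its 95% interval, for 30 against 20 °C, 40 against 20 °C and 40 against 30 °C (n = 3 plants per temperature); filled points passed an FDR of 0.05 and a 2-fold change, and dotted lines mark a 2-fold change. The NAC019 copy on 3B at 30 °C, at -1.98, is the filled point, and the PBF intervals all lie within the dotted lines.

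Over the 9 regulators, the median log2 fold change at 30 °C was -0.33, against 0.00 over all transcripts tested, and 8 of the 9 values were below 0. In 6 of the 9 the FPKM of all plants at 30 °C lay below that of all controls, against 14.3% of all transcripts tested, and in 1, SPA on 1D, above it, against 16.1% (30.4% in either direction). At 40 °C the median was -0.22, and 5 of the 9 lay wholly below the controls, against 26.0% of all transcripts (40.1% in either direction). No regulator lay wholly above them (14.2% of all transcripts). The medians rest on TMM scaling, whereas the counts without overlap, for regulators and for all transcripts, rest on FPKM. The 5 include PBF 5A and 5D, whose TMM-scaled log2 fold changes at 40 °C were -0.06 and -0.17. Both heat treatments were set against the same control plants, so these counts are not independent of each other. Copies of 1 factor also share sequence and are not separate replicates.

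The balance between the factors was read within each plant as a ratio of FPKM totals, which does not depend on the scaling between libraries. The ratio of NAC019 to PBF was 0.759, 0.354 and 0.388 at 20 °C, 0.249, 0.189 and 0.142 at 30 °C, and 0.152, 0.142 and 0.386 at 40 °C. All plants at 30 °C and replicates 1 and 2 at 40 °C lay below the controls, and 40 °C replicate 3 lay among them. The ratio of SPA to PBF was 0.269 ± 0.0427 (SD, n = 3) at 20 °C, 0.263 ± 0.0176 at 30 °C and 0.268 ± 0.0424 at 40 °C and differed by less than the spread between plants. In control grains the PBF copies stood above 93.0% to 94.6% of the transcripts with a mean FPKM over 1. The NAC019 copies stood above 85.3% to 89.5% of them and the SPA copies above 62.4% to 84.8%. At 30 °C the NAC019 copies stood above 51.6% to 75.1%.

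The transcripts most like each factor were sought by Pearson's r over the 9 samples, on log2(FPKM + 0.1), among 16790 transcripts with a mean FPKM of at least 5. They are given as a description, since the highest of many values is high by selection and all samples share the temperature groups. For NAC019, r was 0.976 with TraesCS2D02G371800.1, whose FPKM was 518 ± 44.2 (SD, n = 3) at 20 °C, 387 ± 45.4 at 30 °C and 382 ± 89.2 at 40 °C. Next were TraesCS1B02G449700.1 (r = 0.972), with 335 ± 48.6, 216 ± 11.02 and 231 ± 46.8, and TraesCSU02G057800.1 (r = 0.971), with 120 ± 12.3, 75.5 ± 11.3 and 73.6 ± 20.2. The like transcripts are thus more abundant than NAC019 itself and differ by a smaller factor between temperatures. In all, 113 transcripts had r above 0.9 with NAC019, against 8 with PBF and 3 with SPA. For PBF the most like were TraesCS6D02G376900.2 (r = 0.963), TraesCS1A02G398300.8 (r = 0.943) and TraesCS3A02G159700.1 (r = 0.932). For SPA they were TraesCS7D02G358600.1 (r = 0.937), TraesCS3D02G364900.1 (r = 0.936) and TraesCS3D02G263400.1 (r = 0.918). Without 40 °C replicate 3, r over the other 8 samples was 0.909 to 0.975 for these 9 transcripts. The identifiers of these transcripts are not paired with names in the sources used here.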

How the data were processed

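Grains of 3 plants each at 20, 30 and 40 °C were sequenced. The authors trimmed the reads with Trimmomatic, aligned them to the IWGSC wheat genome and quantified transcripts with RSEM. The deposited tables give, per sample and transcript, the expected count (estimated fragments, not normalized), TPM and FPKM. Fragments matching more than one transcript were shared out by RSEM. The aligner is not given in the sources used here. Proteome data were not used.

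The 9 genes were found by identifier, with the transcript number removed. Expected counts were rounded, only transcripts whose mean FPKM exceeded 1 in one or both groups entered, and edgeR's quasi-likelihood test with TMM factors was run on the 6 samples of each comparison (edgeR 4.0.16, limma 3.58.1, DESeq2 1.42.0, R 4.3.3). It was tested on simulated data first. Intervals are 95% t intervals from the test's degrees of freedom, and the SE is the absolute log2 fold change divided by the square root of F. Factor totals and log2 ratios of copies (FPKM + 0.1) were compared by exact permutation tests (scipy 1.17.1). P-values of edgeR set a difference against the spread between the plants sequenced, moderated over all transcripts. Those of the permutation tests cannot fall below 0.1. Expected counts of 3 fragments or fewer correspond to at most 0.19 CPM, counting error only.

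Named were all 9 members and, per factor, the 3 transcripts with the highest r. Members and lists were chosen with earlier results of these data known. Lists of pathway and marker genes could not be built, because 0 gene identifiers matched the reference table (assembly version 2.1), which also holds no sequences. Gene identifiers give the chromosome, and no coordinates were used. Alternatives covered the replicate block, pooled samples, other tests, scalings, filters, units and pseudocounts, gene sums and leaving out each plant. The r without 40 °C replicate 3 was added after seeing the data.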

Additional observations from a re-analysis of the deposited data

How the results depend on the processing

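The direction of the NAC019 and SPA copies against the control held under all alternatives run, and call counts moved. Of the 9 regulators, the number called at 30 °C was 1, and it was 2 with the replicate block, library size alone, counts summed per gene or FDR alone, and 3 with DESeq2 or the edgeR exact test. With all 9 samples in one fit it was 1, the copy on 3A in place of 3B (FDR 0.079). At 40 °C it was 0, and 2 with DESeq2, the exact test, library size alone or gene sums. Leaving out one plant gave 0 to 2 at 30 °C, 0 to 3 at 40 °C and 0 between 40 and 30 °C. The share of all transcripts called moved too. At 30 °C it was 3.88%, and it was 4.23% with the replicate block, 3.96% in the fit of all 9 samples, 3.82% with library size alone, 5.36% with DESeq2, 6.02% (2768) with the exact test, 5.66% with gene sums, 6.35% with FDR alone and 1.97% to 5.95% (906 to 2757) without one plant. At 40 °C it was 12.1%, and it was 12.9% with DESeq2, 14.2% with the exact test or gene sums and 13.1% with library size alone. Without one plant it was 9.5% to 12.3%. Between 40 and 30 °C it was 3.56%, and 2.45% to 3.37% without one plant. The causes were not tested.

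Deviations of same-numbered plants correlated weakly, at 0.124, 0.051 and 0.024 between 30 and 20 °C. There, replicates 1 and 2 matched their own number best and replicate 3 did not, so pairing was not settled. Between 40 and 20 °C the correlations were -0.061 to 0.068, and no replicate matched its own number best. With the replicate block at 30 °C, NAC019 3A had an edgeR FDR of 0.0117 and 3B of 0.00338, and both were called. With the replicate block, 0 regulators were called at 40 °C. Over all transcripts, 1946 were called at 30 °C with the block against 1784, and 4406 against 5583 at 40 °C.

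Some values turned sign without a call, and not all of them were near 0. At 40 against 20 °C, TraesCS5B02G154100.1 was -0.011 with the replicate block, -0.0274 in the fit of all 9 samples, -0.0063 with DESeq2, -0.006 with its size factors and -0.1536 with library size alone. Without one plant it ran from -0.14 to 0.10, and TraesCS5A02G155900.1 from -0.229 to 0.0421. At 40 against 30 °C, the replicate block gave -0.0117 for TraesCS5D02G161000.1 and -0.1495 for TraesCS3B02G092800.1. Library size alone gave -0.0574 for TraesCS1B02G343500.1, -0.1404 for TraesCS5D02G161000.1 and -0.0158 for TraesCS3B02G092800.1. TraesCS5A02G155900.1 was 0.0191 with no filter and 0.0065 with filterByExpr. Without one plant, TraesCS5A02G155900.1 ran from -0.15 to 0.12, TraesCS5D02G161000.1 from -0.22 to 0.19, TraesCS1B02G343500.1 from -0.0378 to 0.25, TraesCS3B02G092800.1 from -0.95 to 0.59 and TraesCS3D02G078500.1 from -0.63 to 0.82. The log2 ratio of the NAC019 total ran from -0.53 to 0.53, and was 0.24 with all plants. The lowest values of this total, 3B and 3D came without 40 °C replicate 3.

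The log2 ratio of the PBF total at 40 °C was -0.0657 on CPM with TMM factors. The shift of NAC019 3B against 3D at 40 °C was -0.9455 with a pseudocount of 1. As shares of expected counts, which are not corrected for length, SPA 1A made up 28.0%, 19.2% and 23.1% at 20, 30 and 40 °C and 1B 53.5%, 49.7% and 49.5%. PBF 5A made up 37.9%, 40.5% and 38.4%, 5B 30.9%, 29.2% and 32.8%, and 5D 31.3%, 30.3% and 28.8%. At 20 °C NAC019 3A made up 31.9% and 3D 34.2%.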
